A study of Mus musculus with 8 samples.

Results

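The genes described here are 10 transcripts of leukocytes and of MHC class II antigen presentation, read in muscle stem cells that had been sorted to leave leukocytes out. The members were chosen by name (Ptprc, Cd74, H2-Aa, H2-Ab1, H2-Eb1, Lyz2, Cd68, Tyrobp, Fcer1g and C1qa), and all 10 were among the 24630 genes of the deposited table. Muscle stem cells, or satellite cells, came from the limb muscles of male C57BL/6 mice, an inbred strain: 4 were young (4 months) and 4 old (22 months). No treatment or allele set the groups apart besides age. Cells were taken by flow cytometry as CD45-, CD31-, Sca1- and VCAM+, without culture, and each library held the cells of 1 animal. Values are RPKM, that is, reads scaled by gene length and by a library size the authors set, so that levels can be compared between genes.

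CD45, the product of Ptprc, is a membrane phosphatase of nearly all nucleated blood cells, and antibodies to it are the usual way to gate leukocytes out of a muscle digest. MHC class II molecules are pairs of an alpha and a beta chain that show peptides to CD4+ T cells. They are assembled on the invariant chain encoded by Cd74, and macrophages, dendritic cells and B cells make them constitutively, while interferon gamma can induce them in other cells through the transactivator CIITA. Lyz2, Cd68, Tyrobp, Fcer1g and C1qa are myeloid genes, abundant in the macrophages that live between muscle fibres.

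Class II promoters carry an X box and a Y box at a fixed spacing, on which CIITA is assembled. The windows below are shown because the class II members moved together across libraries, and because H2-Eb2, a relative with the same letters, had few reads. They come from RefSeq promoters of GRCm38.p6 (250 bases before to 50 after each start), which covered 6 of the 10 members, and H2-Ab1 was not among them. Capitals mark the letters GCAAC, the core of the X box here, and CTGATTGG, the Y box, both on the strand of the gene.
H2-Aa, chr17:34287857-34287914, minus strand: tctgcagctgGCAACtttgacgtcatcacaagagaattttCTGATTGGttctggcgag
H2-Eb1, chr17:34305766-34305822, plus strand: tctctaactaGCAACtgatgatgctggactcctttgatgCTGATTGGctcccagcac
H2-Eb2, chr17:34325533-34325589, plus strand: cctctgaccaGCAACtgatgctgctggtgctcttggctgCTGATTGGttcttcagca
H2-Oa, chr17:34092293-34092350, plus strand: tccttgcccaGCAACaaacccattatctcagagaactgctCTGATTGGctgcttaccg

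The letters were 25 bases apart in H2-Aa and H2-Oa and 24 in H2-Eb1 and H2-Eb2. On either strand, GCAAC was in 35.2% of 32851 promoter windows and CTGATTGG in 4.10%. Both on 1 strand, GCAAC first and 15 to 45 bases between them, were in 0.146%, or 48 windows. Of 8 class II H2 genes with a window 4 held the pair, and H2-DMa, H2-DMb1, H2-DMb2 and H2-Ob did not. The 4 members outside class II that had a window (Ptprc, Lyz2, Cd68 and Fcer1g) did not hold the pair. The letters were picked with class II promoters in view, so these shares only describe how rare the arrangement was.

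Reads in genes differed between the ages, which touches every low gene here. Recovered from the steps of the RPKM values, they were 1912184 to 6556336 in young and 20072135 to 24863077 in old libraries. The labels' protocols state 26000000 to 37000000 sequenced reads for the libraries, and why the young totals lie so far below that was not tested. The library size behind the RPKM was 1.14 to 1.64 times those reads in young and 0.678 to 0.849 times in old libraries, so values were also taken per library total. Genes of receptor and other families that muscle does not use, such as olfactory and vomeronasal receptors (1561 genes), averaged 0.188 to 0.598 RPKM in young and 0.0279 to 0.0545 RPKM in old libraries. The sort itself was reflected in the stem cell markers: Myod1, a myogenic transcription factor, had 368 ± 42.9 RPKM in young and 1030 ± 193 in old (SD, n = 4 each), and Vcam1, the positive sorting marker, 221 ± 82.3 and 613 ± 213.

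Over the 8 libraries the members fell into 3 tiers of level. Cd74 was highest, with a mean of 75.5 RPKM, and stood above Lyz2 (21.0) in 8 of 8 libraries. Lyz2 and the class II chains H2-Ab1 (14.3), H2-Aa (12.4) and H2-Eb1 (11.2 RPKM) overlapped, and Lyz2 was above H2-Ab1 in 6 of 8. Cd68 followed with 7.22 RPKM. H2-Eb1 was above Cd68 in 6 of 8 libraries, and in old libraries 2 and 4 Cd68 was above H2-Aa, H2-Ab1 and H2-Eb1. Fcer1g (1.29), C1qa (1.10), Tyrobp (0.905) and Ptprc (0.642 RPKM) formed the lowest tier, in which each gene was above the next in only 4 to 6 of 8 libraries. The place of Ptprc rests on the long exon union behind its RPKM: if all its reads were set on its longest coding transcript, its mean would be 2.32 RPKM, above the other 3 of that tier.

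**Figure D1:**
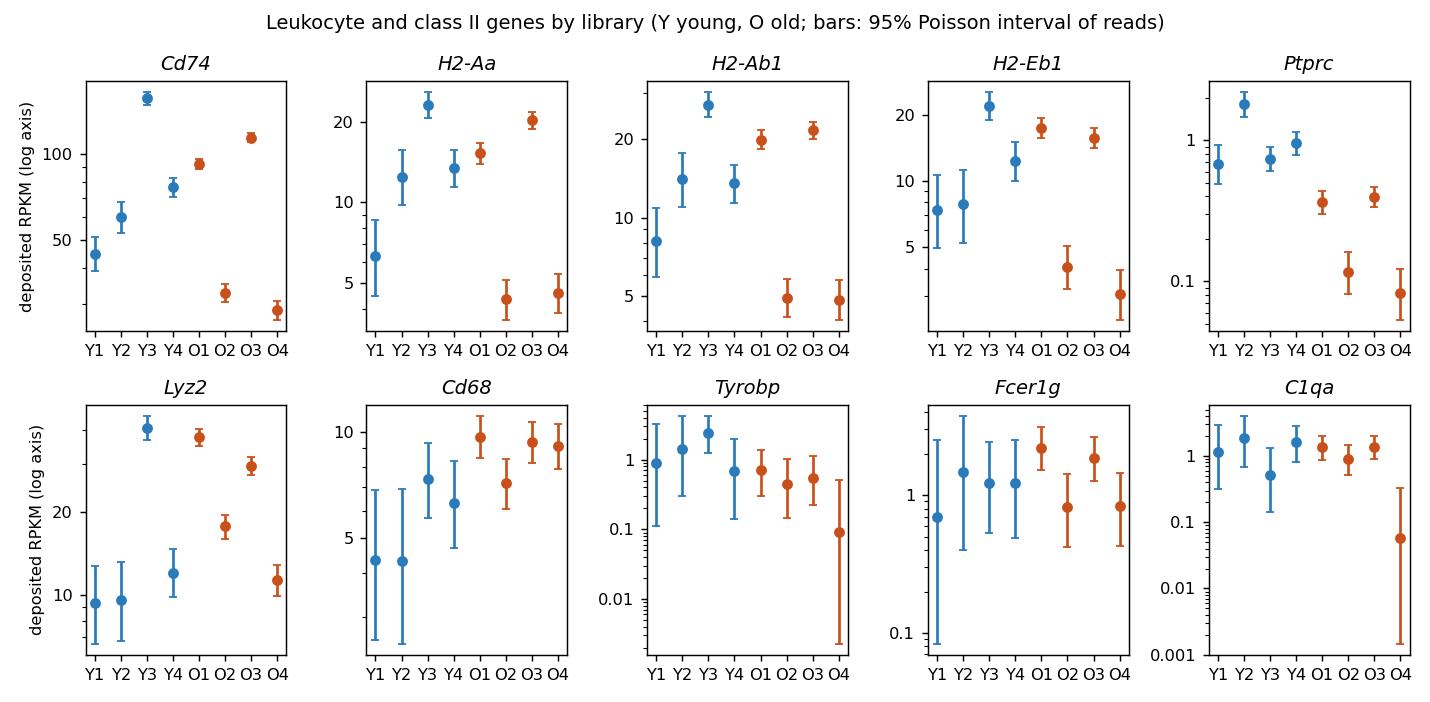
Deposited RPKM (log axis, scaled for each gene) of the 10 genes in each library, with young libraries in blue and old in orange, and bars for the 95% Poisson interval of the reads. For the class II genes and Lyz2, the libraries young 3, old 1 and old 3 stand high, and old 4 is lowest among the old libraries for Cd74 (28.5 RPKM).

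Ptprc (chromosome 1, 138062861 to 138175708, minus strand) had 0.678, 1.80, 0.740 and 0.958 RPKM in young libraries 1 to 4 and 0.365, 0.117, 0.398 and 0.0826 RPKM in old libraries 1 to 4. These are 41, 103, 101 and 115 reads in young and 114, 36, 139 and 25 in old. All 4 young libraries stood above all 4 old ones, both as deposited and per library total (exact two-sided permutation test, p = 0.0286 on each, the smallest that 70 assignments allow). Of 22224 genes averaging 0.1 RPKM or more, 27.8% were likewise lower in old without overlap as deposited and 46.7% per library total, so this order was common among low genes. The mean was 1.04 ± 0.517 RPKM in young and 0.241 ± 0.164 in old (SD, n = 4 each).

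Low signal in genes that muscle does not use moved the same way. Ptprc stood at 2.00, 3.01, 3.94 and 2.94 times the mean of the silent families in young libraries 1 to 4, and at 7.75, 2.91, 14.3 and 1.52 times in old libraries 1 to 4. In young library 1, 10.4% of the silent genes were at or above it, in old library 4 14.99%, and in old library 3 0.769%. With no minimum level, limma on log2(RPKM + 1) gave Ptprc an old minus young difference of -0.70 ± 0.18 as deposited (SE, adjusted p = 0.0229). There 24.3% of all 24630 genes were called lower. On library totals the difference was -0.95 ± 0.26 (limma, adjusted p = 0.0315), where 35.9% were. The added 1 makes these differences smaller in size than the log2 ratio of the RPKM of Ptprc. Its call thus lay in a range where a large share of genes was lower, and the part of the background in it was not tested. The length behind its RPKM was 18313 bases, the union of its annotated exons, where the longest coding transcript has 5074, and A130071D04Rik lies within it on the same strand.

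**Figure D2:**
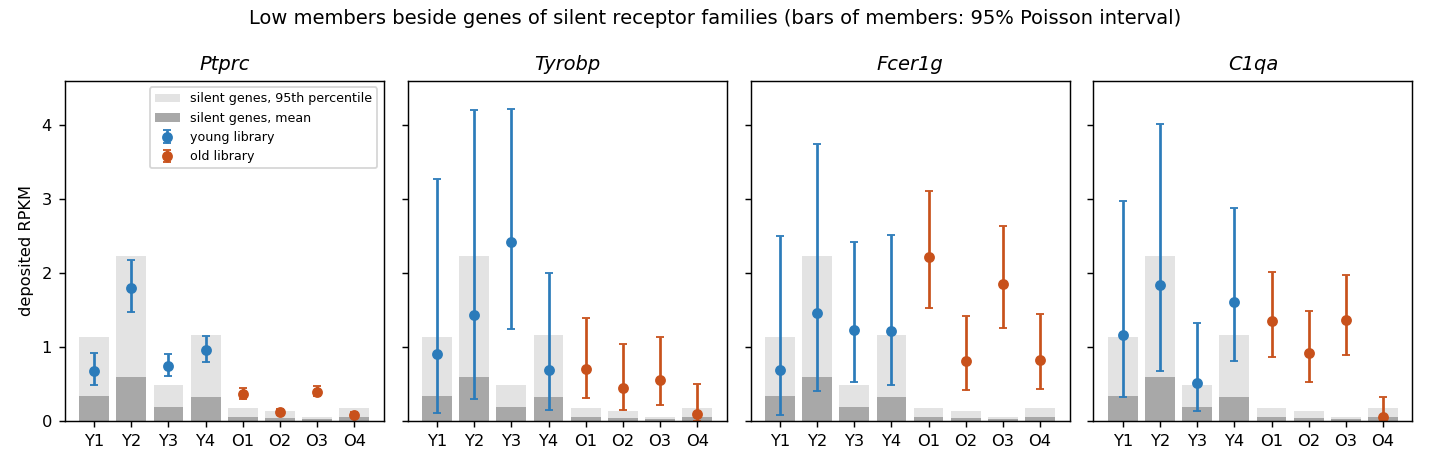
Deposited RPKM of the lowest 4 members by library (points, with the 95% Poisson interval) beside the mean and the 95th percentile of the silent families (bars). In young library 2 all 4 points lie under the 95th percentile of 2.24 RPKM, while in old library 3 all lie above 0.0584 RPKM. In old library 4 Ptprc, Tyrobp and C1qa lie under the 95th percentile of 0.172 RPKM. Ptprc in old library 2 lies under it as well (0.117 against 0.1295 RPKM).

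Cd74 (chromosome 18, 60803848 to 60812652, plus strand), which encodes the invariant chain, had 44.9, 60.1, 156 and 76.5 RPKM in young libraries 1 to 4 and 92.0, 32.7, 114 and 28.5 RPKM in old libraries 1 to 4. Reads were 209 to 1637 in young and 664 to 3064 in old libraries. Young library 3 and old libraries 1 and 3 were high, old libraries 2 and 4 were the lowest of all, and the age groups overlapped. Within the old group the highest library was 4.00 times the lowest, with Poisson intervals that were far apart (110 to 118 against 26.4 to 30.7 RPKM), so the spread between animals exceeded counting error.

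H2-Aa (chromosome 17, 34282744 to 34287823, minus strand) encodes the alpha chain of I-A, the class II molecule of this strain. It had 6.30, 12.5, 23.1 and 13.4 RPKM in young and 15.2, 4.34, 20.2 and 4.58 RPKM in old libraries 1 to 4. Its partner H2-Ab1 (chromosome 17, 34257689 to 34269419, plus strand) had 8.14, 14.1, 27.1 and 13.5 RPKM in young and 19.9, 4.93, 21.7 and 4.84 in old libraries. Both genes repeated the order of Cd74 closely, with young library 3 highest and old libraries 2 and 4 lowest.

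H2-Eb1 (chromosome 17, 34305867 to 34316674, plus strand) encodes the beta chain of I-E, whose alpha chain gene is disrupted in C57BL/6 mice. It had 7.41, 7.83, 22.0 and 12.4 RPKM in young and 17.4, 4.06, 15.7 and 3.07 RPKM in old libraries 1 to 4. The annotation places Gm20513 on the opposite strand over it, and the reads of both could not be told apart if the counting ignored strand. The disrupted alpha gene, listed as H2-Ea-ps, had 1 read in each old library and 2, 3, 3 and 11 in the young ones. The E beta transcript was thus present at the level of the I-A chains. That of its partner was under the limit of 3 reads in old libraries and reached 11 reads in young library 4.

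The proportions among the class II genes varied less than their levels. Across the 8 libraries Cd74 varied 5.47-fold, H2-Aa 5.32-fold, H2-Ab1 5.61-fold and H2-Eb1 7.18-fold between the lowest and the highest library. In the same libraries H2-Aa per Cd74 lay between 0.133 and 0.207, a range of 1.56-fold, and H2-Ab1 per Cd74 between 0.151 and 0.234 (1.55-fold). H2-Aa per H2-Ab1, the ratio of the chains of I-A, lay between 0.765 and 0.994 (1.30-fold). H2-Eb1 varied more, between 0.108 and 0.190 per Cd74 (1.76-fold) and between 0.557 and 0.915 per H2-Ab1 (1.64-fold). None of these ratios differed between ages beyond the spread between animals: H2-Ab1 per Cd74 was 0.192 ± 0.0285 in young and 0.182 ± 0.0281 in old (SD, n = 4 each, exact two-sided permutation p = 0.629), and H2-Aa per Cd74 and H2-Eb1 per Cd74 gave exact p = 0.714 and exact p = 0.543.

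**Figure D3:**
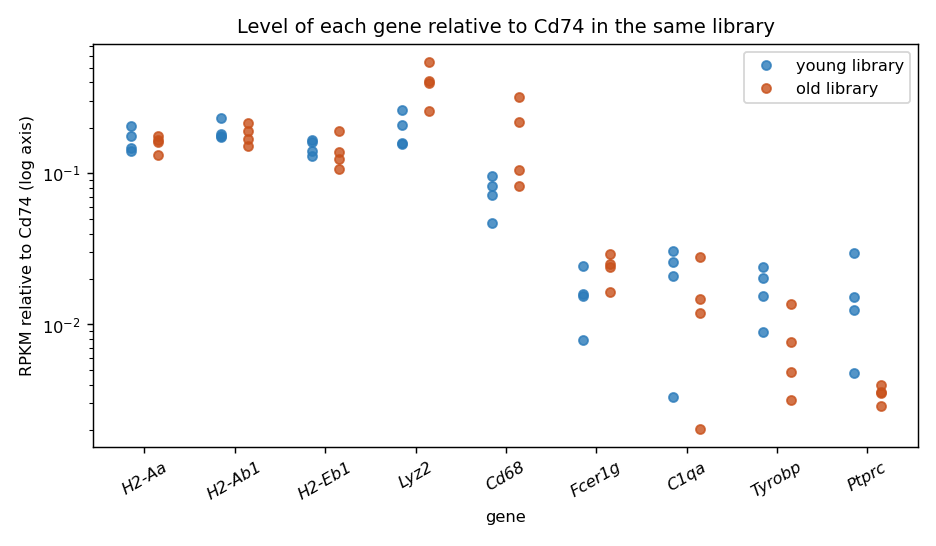
RPKM of each gene divided by that of Cd74 in the same library (log axis), with young libraries in blue and old in orange. The class II chains form tight groups at 0.108 to 0.234 in both ages, whereas Ptprc spreads 10.3-fold.

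Among the myeloid members, Lyz2 (chromosome 10, 117277331 to 117282321, minus strand), the lysozyme of macrophages and granulocytes, was the highest. It had 9.33, 9.59, 40.7 and 12.0 RPKM in young and 37.7, 17.8, 29.6 and 11.3 RPKM in old libraries 1 to 4. Young library 3 stood far above the other young libraries, and old libraries 1 and 3 were highest in their group, as for Cd74. Lyz2 per Cd74 was 0.197 ± 0.0490 in young and 0.402 ± 0.116 in old libraries (SD, n = 4 each, exact two-sided permutation p = 0.0571), a single pair of libraries overlapping. The neighbouring paralog Lyz1 was 96.0% identical to Lyz2 over 1262 aligned transcript bases, so reads may have been split between them. Lyz1 was listed at 0.362 to 4.14 RPKM in young and 0.144 to 2.82 in old libraries, and its highest library in each group was library 3.

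Cd68 (chromosome 11, 69664213 to 69666153, minus strand), which encodes the lysosomal glycoprotein macrosialin, varied least. It had 4.33, 4.32, 7.37 and 6.31 RPKM in young and 9.71, 7.18, 9.38 and 9.14 RPKM in old libraries 1 to 4. Only young library 3 and old library 2 overlapped. Between its lowest and highest library it varied 2.25-fold, and relative to Cd74 it varied 6.79-fold, so its level followed that of the class II genes less closely than the class II genes followed each other.

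Fcer1g (chromosome 1, 171229572 to 171234365, minus strand) and Tyrobp (chromosome 7, 30413760 to 30417585, plus strand) encode signalling adaptors, the Fc receptor gamma chain and DAP12. Fcer1g had 0.693, 1.46, 1.23 and 1.22 RPKM in young and 2.22, 0.815, 1.86 and 0.831 RPKM in old libraries 1 to 4, from 2 to 8 reads in young and 12 to 33 in old libraries. Tyrobp had 0.908, 1.44, 2.42 and 0.686 RPKM in young and 0.704, 0.445, 0.550 and 0.0907 in old libraries, from no more than 12 reads in any library and 1 read in old library 4. The Poisson interval of young library 4 alone ran from 0.142 to 2.01 RPKM, which covers 3 of the 4 old values. Tyrobp overlapped between ages on the deposited scale (exact two-sided permutation p = 0.0571) and not on library totals (exact p = 0.0286), where 46.7% of genes averaging 0.1 RPKM or more were lower without overlap.

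C1qa (chromosome 4, 136895917 to 136898803, minus strand) encodes a chain of the complement protein C1q, which macrophages secrete. It had 1.16, 1.84, 0.516 and 1.61 RPKM in young and 1.35, 0.913, 1.36 and 0.0582 RPKM in old libraries 1 to 4, from 4 to 11 and from 1 to 27 reads. Its partner C1qb, with more reads, had 1.95, 2.06, 3.21 and 3.08 RPKM in young and 5.28, 1.80, 6.74 and 1.17 RPKM in old libraries. Among the old libraries C1qb was thus highest in 1 and 3, as were Cd74 and C1qa. C1qc had 0.166 to 0.834 RPKM in young libraries. In old libraries 1 to 4 C1qc had 0.334, 0.154, 0.407 and 0.376 RPKM, from 5 to 15 reads, with library 4 above library 1.

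In the old group the same animals were high for all 10 members: libraries 1 and 3 both exceeded libraries 2 and 4 for 10 of 10 genes, where 11.5% of the 11088 genes that averaged 1 RPKM or more did so. Young library 3 was highest of the young for 7 of 10 members, against 37.9% of those genes. Both held for 7 members (Cd74, H2-Aa, H2-Ab1, H2-Eb1, Lyz2, Cd68 and Tyrobp) and for 5.18% of all. On library totals the members gave the same counts, and the shares of all genes were 21.6%, 21.9% and 6.73%. For some members the order lay within counting error. Cd68 had 9.38 RPKM in old library 3 and 9.14 in old library 4, with Poisson intervals of 8.19 to 10.7 and 7.89 to 10.5. Tyrobp had 8, 5, 7 and 1 reads in old libraries 1 to 4. Ptprc and Tyrobp also averaged less than the 1 RPKM of the genes compared. This order of libraries was noticed in these values and is a description. Summed markers of other cell types stood with it in part: erythroid markers were 113 RPKM in old library 3 and 29.0 to 39.2 in the other old libraries, and endothelial markers 95.3 and 140 RPKM in old libraries 1 and 3 against 65.2 and 67.9 in old libraries 2 and 4. Among the young, erythroid markers were highest in library 1 (50.4 against 43.9 RPKM in library 3) and endothelial markers in library 4 (105 against 100). Sums of mast, dendritic and other macrophage genes and of partners of the adaptors also had the order of the old libraries. Fibro-adipogenic, stem cell, T and NK, B and plasma, and neutrophil sums did not. Neither did the sums of other pan-leukocyte and other class II pathway genes. The part of such cells in these values was not tested, and fewer cells of a type and less RNA per cell cannot be told apart in bulk samples.

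**Figure D4:**
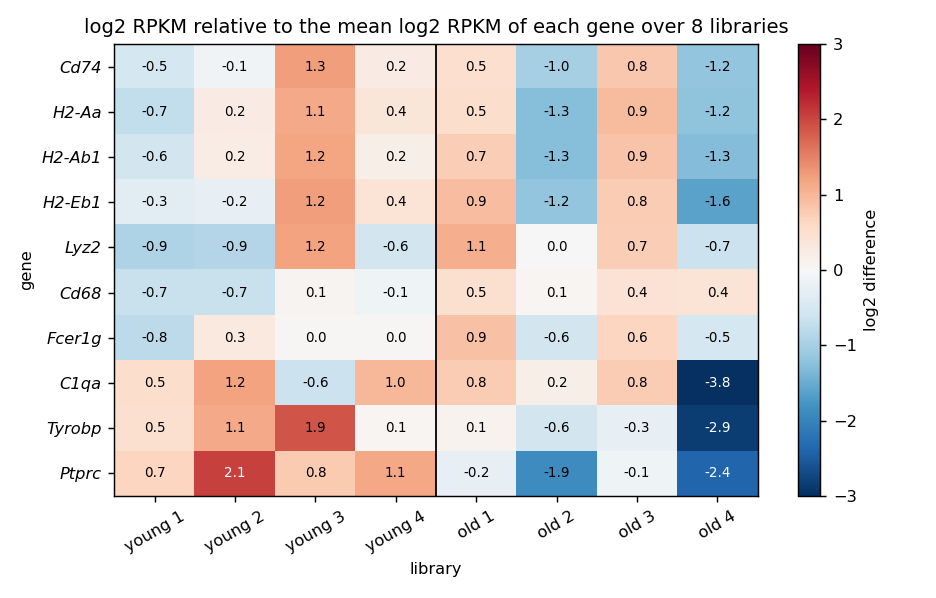
Each gene's log2 RPKM minus its mean over the 8 libraries, by library, from blue (lower) to red (higher), with a line between ages. The class II rows share one pattern, with young 3, old 1 and old 3 above 0 and old 2 and old 4 below, and Ptprc is above 0 in the young libraries and below in the old.

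Age was then tested for each gene across the whole table with limma on log2(RPKM + 1), for genes averaging 1 RPKM or more. Ptprc and Tyrobp lay under that minimum, so 8 of the 10 members entered. Log2 fold changes from limma are old minus young on log2(RPKM + 1). For genes of low level the added 1 makes them smaller in size than the log2 ratio of the RPKM. On the deposited scale 1 of 8 was called higher in old (42.1% of 11096 genes were) and 0 lower (5.34% were). On library totals 0 were called higher (7.27% of genes were) and 0 lower (22.3% were). At an unadjusted p under 0.05 limma had 0 members lower on the deposited scale and 1, Cd74, on library totals. The median log2 fold change was -0.35 over the 8 members and 0.36 over all genes on the deposited scale, and -0.84 against -0.20 on library totals.

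The single call was Cd68, with 5.58 ± 1.51 RPKM in young and 8.85 ± 1.14 in old (SD, n = 4 each) and an estimate of 0.60 ± 0.18 on the log2 scale (SE, limma, adjusted p = 0.0152). It was lost on library totals, where the 95% interval ran from -0.38 to 0.38 and the means were 7.01 ± 1.26 and 7.05 ± 1.51. Without young library 1 it had an adjusted p of 0.0570 (limma), and with young libraries 1 and 2 left out 0.142. With limma-voom on recovered reads the estimate was 0.59 and the adjusted p 0.0547.

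The class II genes differed between ages by less than the spread between animals. Cd74 had 84.3 ± 49.4 RPKM in young and 66.7 ± 42.7 in old (SD, n = 4 each), or -0.42 ± 0.46 on the log2 scale (SE, limma, adjusted p = 0.466, 95% interval -1.40 to 0.56). H2-Aa, H2-Ab1 and H2-Eb1 lay at -0.43, -0.44 and -0.46. On library totals Cd74 had -1.10 ± 0.49 (limma, adjusted p = 0.108) and the 3 chains -1.05 to -1.07. Leaving out old library 3 there gave Cd74 -1.47 (limma, adjusted p = 0.0426) and H2-Aa -1.42 (limma, adjusted p = 0.0476). Without old library 2 or 4 Cd74 had -0.78 and -0.79 there, with no call. As deposited, leaving out each library in turn gave Cd74 between -0.07 (without young library 3) and -0.76 (without old library 3), and the 3 chains between -0.08 and -0.81, with no call. The 95% interval of Cd74 on library totals ran from -2.18 to -0.03, and those of the 3 chains included 0.

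Lyz2 was estimated at 0.55 ± 0.43 (log2, limma, adjusted p = 0.316) as deposited and -0.10 ± 0.45 (adjusted p = 0.879) on library totals. Without young library 3, its highest young value, it was called at 1.02 (limma, adjusted p = 0.0386) on the deposited scale. Fcer1g had 0.14 ± 0.22 and -0.23 ± 0.26, and C1qa -0.28 ± 0.27 and -0.63 ± 0.31 on these scales, with no call (limma, adjusted p between 0.150 and 0.614). C1qa moved to -0.92 with limma-voom, -0.73 at a pseudocount of 0.1, -0.08 after background subtraction and -0.02 without old library 4, each without a call.

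With no minimum level all 10 members entered, and limma called Cd68 higher and Ptprc lower on the deposited scale, where 17.8% of genes were higher and 24.3% lower. On library totals it called Ptprc and Tyrobp lower and none higher, where 3.54% of genes were higher and 35.9% lower. Tyrobp had -0.67 ± 0.25 (adjusted p = 0.0659) on the deposited scale and -0.97 ± 0.28 (adjusted p = 0.0344) on library totals. At a minimum of 0.1 RPKM both genes were called lower by limma on either scale, where 30.3% of 22249 genes were lower and 21% higher as deposited, and 44.7% and 4.31% on library totals.

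**Figure D5:**
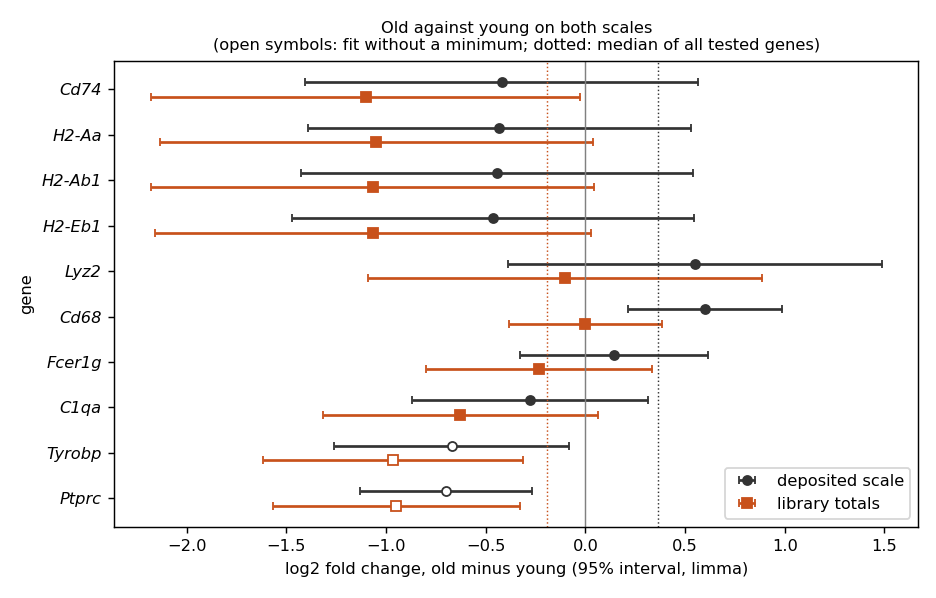
Log2 fold change of old against young, on log2(RPKM + 1), with its 95% interval from limma for each member. Values are as deposited (black) and per library total (orange), with dotted lines at the median of all genes tested. The intervals of the class II genes are the widest, and Cd68 lies at 0.60 as deposited and at 0 per library total.

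Relative to Cd74, Ptprc was again lower in every old library than in any young one. Ptprc per Cd74 was 0.0151, 0.0299, 0.00475 and 0.0125 in young and 0.00397, 0.00357, 0.00349 and 0.00290 in old libraries 1 to 4 (exact two-sided permutation p = 0.0286). The old libraries were close to each other although Ptprc itself varied 4.82-fold among them, and every young library was above them. After the mean of the silent families was subtracted from Ptprc, the ratio was 0.00754, 0.0200, 0.00354 and 0.00826 in young and 0.00346, 0.00234, 0.00325 and 0.000987 in old libraries. Young library 3 and old library 1 were then nearly level, and the old libraries were no longer close to each other. The p-value is not adjusted over the ratios examined. The share of other low genes with this order relative to Cd74 was not computed, and the part of the background in it was not tested.

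Of the other genes of the class II pathway, 21 of 22 were in the table and 14 were tested. On the deposited scale 4 were called higher and 1 lower, and on library totals 0 and 2 (medians 0.35 and -0.23, near those of all genes). H2-DMb2, a chain of the peptide editor H2-M, fell from 2.12 ± 1.15 to 0.652 ± 0.615 RPKM (SD, n = 4 each, limma, log2 fold change -0.89, adjusted p = 0.0253, and -1.23 on library totals, adjusted p = 0.0243). The protease Ctsl had 200 ± 39.0 RPKM in young and 313 ± 61.4 in old, with 0.64 (limma, adjusted p = 0.0274) as deposited and -0.05 per library total. Rfxank, a subunit of the factor that binds the X box, had 0.75 and 0.26, and the thiol reductase Ifi30 0.65 and 0.12, without a call on library totals. H2-Eb2, whose promoter window is shown with that of H2-Eb1, had 2 to 6 reads in each young library and 0 reads in each old one, which allows up to 0.0712 to 0.0821 RPKM (3 reads, counting error only). The same promoter letters thus stood before genes of very different levels.

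Other pan-leukocyte genes, 18 in number and 8 of them tested, gave 1 call higher and 2 lower as deposited and 1 and 4 per library total. Of all genes tested 42.1% were higher and 5.34% lower as deposited, and 7.27% and 22.3% on library totals. The median log2 fold change of the list was -0.48 as deposited and -0.80 on library totals. Its sums overlapped between ages, at 29.8 to 42.5 RPKM in young and 34.1 to 45.6 in old libraries. Cd53, a tetraspanin of leukocytes, fell from 3.52 ± 0.380 to 1.74 ± 1.19 RPKM (limma, -0.84, adjusted p = 0.0247, and -1.30 on library totals), and the actin regulator Coro1a from 1.60 ± 0.566 to 0.737 ± 0.528 RPKM (-0.61, adjusted p = 0.0458, and -0.95). In old libraries 1 to 4 Cd53 had 2.93, 1.26, 2.47 and 0.313 RPKM, which is again highest in libraries 1 and 3. The sum of the list did not have this order, with 39.85, 41.8, 45.6 and 34.1 RPKM in old libraries 1 to 4.

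Of 26 other macrophage genes 6 were tested, with 1 called higher as deposited and 0 per library total (42.1% and 7.27% of all genes tested were). Cd14, the lipopolysaccharide co-receptor, had 24.0 ± 7.06 RPKM in young and 58.3 ± 18.1 in old (limma, 1.23, adjusted p = 0.00264, and 0.55 on library totals, adjusted p = 0.102). Summed over the list the level was 41.3 to 55.6 RPKM in young and 47.7 to 104 in old libraries. Cd14 alone made up 18.1 to 33.6 RPKM of this in young and 35.7 to 80.0 in old libraries, so this gene weighs heavily in the sum. The median log2 fold change of the tested genes of the list was -0.04 as deposited and -0.50 on library totals. Among partners of the adaptors, 13 genes with 2 tested, the Fc receptor Fcgr4 fell from 2.12 ± 1.63 to 0.0819 ± 0.0481 RPKM (limma, -1.37, adjusted p = 0.00443, and -1.64 on library totals). Its young values were 1.21, 4.07, 0.428 and 2.79 RPKM. They were highest in young library 2 and lowest in young library 3, as was the mean of the silent families. Young libraries 1 and 4 differed for Fcgr4, whereas the silent families averaged 0.340 and 0.326 RPKM there. The part of the background in these values was not tested. Trem2, a receptor that signals through DAP12, had 5 to 9 reads in each young and 1 to 4 in each old library, and Hcst, the adaptor DAP10, 0 to 9 and 1 to 3.

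Defining genes of other leukocytes were low. None of 13 neutrophil genes reached the minimum, and their sum was 5.85 to 12.4 RPKM in young and 0.938 to 2.65 in old libraries, with Retnlg at 1.77 ± 1.02 and 0.122 ± 0.121 RPKM and Ngp at 1.25 ± 0.530 and 0.480 ± 0.273. Of 11 T and NK cell genes present, Lck alone was tested (limma, -0.41, adjusted p = 0.0533, and -0.78 on library totals, adjusted p = 0.00978), and the sum was 7.68 to 11.3 in young and 1.54 to 4.13 RPKM in old libraries. Of 7 B and plasma cell genes 4 were tested, and the antibody joining chain Jchain had 1.15 ± 1.49 RPKM in young and 4.62 ± 3.73 in old (limma, 1.32, adjusted p = 0.0427, and 0.92 on library totals, adjusted p = 0.197). Of 8 dendritic cell genes 2 were tested, and the lectin Cd209a fell from 3.80 ± 0.863 to 2.25 ± 0.851 RPKM (limma, -0.59, adjusted p = 0.0356, and -1.08 on library totals). Of 7 mast cell genes 3 were tested with no call, and the tryptase Tpsb2 had 1.91 ± 1.41 and 4.67 ± 2.87 RPKM (limma, 0.93, adjusted p = 0.0960) and the chymase Cma1 2.21 ± 1.21 and 2.74 ± 1.73. The silent families were also higher in every young library than in any old one, and their part in the lower sums of old libraries was not tested.

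Markers of cells that the gate should leave out were also read, and whether such cells were the source was not tested. Beside the calls below, 42.1% of all genes tested were higher and 5.34% lower as deposited, and 7.27% and 22.3% on library totals. Endothelial markers summed to 85.0 to 105 RPKM in young and 65.2 to 140 in old libraries, and of 9 tested 1 was called lower as deposited and 3 per library total (Kdr, the receptor VEGFR2, fell from 3.04 ± 0.633 to 1.68 ± 0.673 RPKM, limma, adjusted p = 0.0193). Markers of fibro-adipogenic cells summed to 418 to 579 RPKM in young and 856 to 1403 in old libraries, with 1 of 6 tested called on both scales, Dcn, a matrix proteoglycan (358 ± 63.2 and 1069 ± 251 RPKM, limma, adjusted p = 0.000491). Dcn made up most of these sums, with 320 to 452 RPKM in young and 703 to 1257 in old libraries. Erythroid markers, 4 tested with no call, summed to 21.1 to 50.4 and 29.0 to 113 RPKM, with Hba-a1 at 18.2 ± 7.17 in young and 28.6 ± 20.8 in old and Hba-a2 at 8.58 ± 4.90 and 11.4 ± 10.1. On library totals the fibro-adipogenic sums overlapped between ages (513 to 723 and 580 to 1191), as did those of the other macrophage genes (50.6 to 79.2 and 37.9 to 86.4). The class II members summed to 66.7 to 228 and 41.0 to 172 RPKM, and the stem cell markers to 2333 to 3799 and 4135 to 6142 as deposited, or 3469 to 4377 and 3449 to 4162 on library totals. Of 14 stem cell markers 5 were called higher and 1 lower as deposited and 2 and 6 per library total, among them Calcr (limma, -0.85 and -1.53) and Myf5 (0.95 and 0.25).

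For Cd74, Ptprc and Tyrobp, the genes with the most similar pattern were sought by Pearson's r of deviations from the age means over the 8 libraries, among genes averaging 1 RPKM or more. For Cd74 these were Mir5119 (r = 0.968), Ctss (0.967) and Dnmbp (0.965). Mir5119 had 0 reads in young libraries 1, 2 and 4 and in old library 4, and replaced zeros entered its r. Ctss, the cathepsin that cleaves the invariant chain, had 1.78, 4.00, 7.71 and 3.48 RPKM in young and 5.06, 1.79, 8.61 and 1.74 RPKM in old libraries 1 to 4. For Ptprc they were Slc46a3 (0.971), Neurl3 (0.965) and Tceanc (0.963), and for Tyrobp Zfp236 (0.990), Cdc42ep1 (0.984) and Stard4 (0.955). With 8 libraries and 11096 genes searched, values this high are given as a description only.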

How the data were processed

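Messenger RNA of sorted muscle stem cells was sequenced in 8 libraries, 4 young and 4 old, after oligo(dT)-primed cDNA synthesis, per the labels' protocols. The authors deposited RPKM values and, per the submitters' processing notes, the tools were STAR, Subread, featureCounts, edgeR and Trim Galore, and the builds GRCm38 and mm10. Their versions and the annotation were not given in the sources used here.

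Whole reads per gene were recovered as multiples of the worth of 1 read (100% of genes with reads, within 0.001 of a whole number). For 80.1% of those genes the length was the exon union in GENCODE M21. For the rest, among them Cd74, H2-Aa, H2-Ab1, H2-Eb1, H2-Eb2, Lyz1 and Lyz2, it was the smallest length giving whole reads, so their reads, and intervals and limits from them, hold up to a common factor. Zeros had been replaced by 0.5 times the smallest positive value of the gene in 7124 genes. They are printed as 0 and were tested as deposited. No member had one.

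The design foresaw limma (3.58.1, R 4.3.3) with trend on log2(RPKM + 1), for genes averaging 1 RPKM or more, Benjamini-Hochberg adjustment over all genes tested and a threshold of 0.05. Library totals means RPKM rescaled to reads in genes. "Rose" and "fell" are kept for genes that passed it on each scale. Single values were tested by exact two-sided permutation over 70 assignments (SciPy 1.17.1), without adjustment over the members. Poisson intervals (95%) cover counting error only, since reads after PCR are no independent molecules.

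The members and gene lists were chosen with earlier results of these data known. Genes named beside the members were, in each list, up to 4 of those called with the largest change, or else the 2 of highest level, the nearest relatives of members, and the 3 most alike to Cd74, Ptprc and Tyrobp. Trem2, Fcgr1, Fcgr3 and Siglech stood in more than 1 list. Promoter windows of chromosome 18 were left out. Alternatives changed the scale, minimum, pseudocount, model and libraries. Spike-in RNA is not analysed here. One gene called in the pan-leukocyte list is not reported here. Over all pairs of the 8 libraries the correlation was 0.985 at most, and none was a copy of another.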

Additional observations from a re-analysis of the deposited data

Results flagged for a closer look

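Lyz2 stood apart in young library 3, at 40.7 RPKM against 9.33 to 12.0 RPKM in the other young libraries. The gap to the nearest was 0.913 of the range of the group, above Dixon's 95% critical value for 4 samples. It was the single such value among 20 groups of 4 examined (10 genes in each age), and chance gives about 1 in 20. In the same library Cd74 (156 RPKM), H2-Ab1 (27.1 RPKM) and Lyz1 (4.14 RPKM) were also highest among the young.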

How the results depend on the processing

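Cd68 was the single member called higher on the deposited scale. No member was called higher on library totals (0), with limma-voom on recovered reads (0, with the estimate of Cd68 nearly as before) or with young libraries 1 and 2 left out (0), and leaving out each library in turn gave 0 to 2. Members called lower numbered 0 with all libraries, 2 at a minimum of 0.1 RPKM and 1 without a minimum, where Ptprc and Tyrobp enter. On library totals they numbered 2 without a minimum and 2 at a minimum of 0.1 RPKM, with 0 higher in both, and leaving out each library gave 0 to 2 lower and 0 higher. These alternatives on library totals were chosen after seeing the data. Minimum, pseudocount, trend and background subtraction otherwise left both counts as they were. Lyz2 changed sign on library totals (-0.10, also without a minimum and at 0.1 RPKM) and with young libraries 1 and 2 left out (-0.03), as did Fcer1g on library totals (-0.23) and without old library 1 (its values with each library left out lay between -0.0094 and 0.2656). The cause was not tested. On library totals with each library left out in turn, Lyz2 lay between -0.39 and 0.32 (as deposited 0.30 and 1.02), Fcer1g between -0.39 and -0.08 and Cd68 between -0.11 and 0.15 (as deposited 0.51 and 0.73). With the replicate number as a block (replicate block), 1 member was called higher and 0 lower. Libraries with the same number came from different animals, their deviations correlated at -0.15 to 0.24, and library 3 alone was most alike to its own number. Depth limits Tyrobp, C1qa and Fcer1g, with 1 to 33 reads per library.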
